A study of Mus musculus with 24 samples.

Results

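The genes described here are 33 genes of cholesterol and fatty acid synthesis, found by gene symbol in a table of 34745 genes. They are 7 genes of the mevalonate pathway, 11 genes that lead from squalene to cholesterol, 4 genes of sterol control and transport, 5 genes of fatty acid supply and synthesis and 6 genes of fatty acid elongation and desaturation. All 33 genes were in the table and all 33 passed the filter on low counts, which kept 16026 genes. The genes were selected on their place in these pathways, with the measured count differences between M-Z- and M-Z+ embryos already in view. Their differences between genotypes are therefore given as a description. Counts of these genes called in the fit across all genes are printed beside the share of all genes called, and nothing is read from them. The tests that do not use that comparison are those of relations among embryos of the same genotype.

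RNA was sequenced from whole embryos of a 129/DBA hybrid background at embryonic day 13.5, with 1 library per embryo. *Zfp57* encodes a zinc finger protein that keeps DNA methylation at imprinted regions. The set held 6 M-Z+ embryos, labelled Zfp57-/+, which lacked maternal *Zfp57* but had a zygotic copy, and 6 M-Z- embryos, which lacked both maternal and zygotic *Zfp57*. Loss of maternal *Zfp57* was therefore shared by both groups, and the embryos with intact *Zfp57* were not analysed here. The sex, litter and batch of the embryos are not given in the labels, so p-values measure only the spread between these embryos. Total counts ranged from 12347383 to 19216288 in M-Z+ embryos and from 12005145 to 14617373 in M-Z- embryos. *Zfp57* itself had 19.1 to 40.8 CPM (counts scaled to a common library size) in M-Z+ embryos and 17.8 to 27.8 in M-Z- embryos. These counts cover the whole gene, and the deleted part is not given in the sources used here, so they do not check the genotype labels. The libraries also differed in how strongly counts rose with gene length. This gene length slope (log2 CPM per doubling of gene length) ran from 0.437 to 0.668 in M-Z+ embryos and from 0.533 to 0.670 in M-Z- embryos. The lowest was M-Z+ replicate 4, and the highest 3 were M-Z- replicate 6, M-Z+ replicate 6 and M-Z- replicate 5.

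Cholesterol is built from acetyl-CoA through mevalonate, squalene and lanosterol, and fatty acids are built from the same precursor through malonyl-CoA. When membranes are poor in sterol, the transcription factor SREBP2 is released from the endoplasmic reticulum and turns on the sterol enzymes, whereas its relative SREBP1 acts mainly on the fatty acid enzymes. INSIG1 holds both factors in the endoplasmic reticulum, and the stearoyl-CoA desaturases SCD1 and SCD2 put the first double bond into saturated fatty acids. A growing embryo needs both kinds of lipid for new membranes, and cholesterol is also attached to Hedgehog proteins.

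The promoters of *Insig1*, *Cyp51* and *Hmgcs1* are shown. *Insig1* was the closest sterol-pathway partner of *Scd1*, and *Cyp51* was the closest sterol enzyme. *Hmgcs1* was the 1 gene with an exact TCACNCCAC match among the 26 genes whose promoters were searched. Promoter sequences from RefSeq (GRCm38.p6) were used for 26 of the 33 genes. Those of *Scd1*, *Scd2*, *Sqle*, *Fdps*, *Fdft1*, *Fads1* and *Stard4* were not used here. Each sequence is the 250 bases before the start, written 5′ to 3′ on the strand of the gene, and capitals mark TCACNCCAC (a sterol regulatory element), CCAAT (an NF-Y box) or GGGCGG (an Sp1 box) on either strand.
Insig1, chr5:28071162-28071411, plus strand: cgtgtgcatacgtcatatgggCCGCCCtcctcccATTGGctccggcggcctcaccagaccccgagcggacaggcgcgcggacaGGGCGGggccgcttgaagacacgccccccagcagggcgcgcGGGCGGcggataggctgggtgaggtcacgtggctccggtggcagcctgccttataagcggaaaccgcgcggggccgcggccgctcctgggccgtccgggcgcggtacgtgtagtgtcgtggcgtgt
Cyp51, chr5:4104698-4104947, minus strand: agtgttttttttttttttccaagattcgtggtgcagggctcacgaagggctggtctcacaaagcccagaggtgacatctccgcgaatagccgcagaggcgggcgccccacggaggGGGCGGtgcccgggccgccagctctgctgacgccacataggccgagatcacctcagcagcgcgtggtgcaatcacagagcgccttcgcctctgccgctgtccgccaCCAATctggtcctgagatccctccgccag
Hmgcs1, chr13:119690101-119690350, plus strand: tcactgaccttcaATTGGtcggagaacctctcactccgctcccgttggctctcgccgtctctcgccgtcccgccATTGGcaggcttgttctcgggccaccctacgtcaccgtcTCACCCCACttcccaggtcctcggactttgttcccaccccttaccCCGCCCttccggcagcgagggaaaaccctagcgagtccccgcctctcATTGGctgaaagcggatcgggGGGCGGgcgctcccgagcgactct

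TCACNCCAC was found in the windows of 1 of 26 genes (3.85%), against 1.22% of the windows of 27025 genes. That gene was *Hmgcs1*, whose element did not overlap its 3 CCAAT boxes or 2 GGGCGG boxes. CCAAT was found for 21 of 26 genes (80.8%), against 37.5% of all genes. GGGCGG was also found for 21 of 26 (80.8%), against 35.4% of all genes. The E-box CACGTG, which is not marked in capitals, was found for 5 of 26 genes (19.2%), against 6.86% of all genes. The 27025 genes were not limited to those that passed the filter on counts, as all 26 genes did, so the shares do not compare like sets. These matches are letters within 250 bases and not measured binding sites. Only exact TCACNCCAC was searched, so a window without it may still hold another form of sterol regulatory element.

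*Scd2*, a desaturase, had the highest level per length in the set. Its mean was 815 TPM, a level scaled by gene length and library size, over the 12 embryos, from 643 to 945. *Hmgcs1*, whose enzyme makes HMG-CoA, was next at 446 TPM (354 to 500). *Fads2*, which encodes another desaturase, followed at 277 TPM (227 to 322). Each of these 3 genes was above the next gene in all embryos, so their order did not depend on the embryo. From the fourth gene on, neighbours in the order overlapped. *Srebf2* (195 TPM), *Fads1* (182), *Acly* (168), *Acat2* (140), *Fdft1* (123) and *Fasn* (93.7) followed. *Scd1* stood at rank 16 with 53.4 TPM (34.8 to 69.9). *Acss2*, which makes acetyl-CoA from acetate, was the lowest with 5.69 TPM. TPM were computed with the 1 length per gene that the deposited FPKM values imply, so a gene annotated with long rare transcripts has a low TPM.

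**Figure D1:**
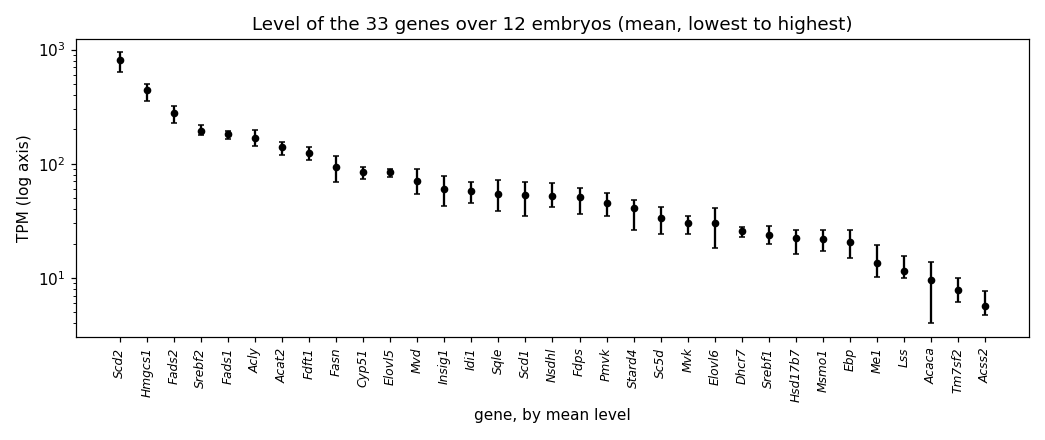
Level of each of the 33 genes in TPM on a log axis, with points at the mean over 12 embryos and bars from the lowest to the highest embryo. Scd2 at 815 TPM, Hmgcs1 at 446 and Fads2 at 277 stand apart, and the ranges of the later neighbours overlap.

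*Scd1* and *Scd2* were the genes of the set whose genotypes did not overlap. *Scd1* CPM ran from 49.9 to 70.4 with a median of 59.5 in M-Z+ embryos, and from 71.4 to 97.7 with a median of 84.7 in M-Z- embryos. The lowest M-Z- embryo, replicate 5, was just above the highest M-Z+ embryo, replicate 2. The log2 fold change of *Scd1* (M-Z- over M-Z+) was 0.52 ± 0.10 (SE, n = 6 per genotype; 95% interval 0.30 to 0.73). *Scd2* CPM ran from 1039 to 1190 with a median of 1135 in M-Z+ embryos, and from 1291 to 1489 with a median of 1376 in M-Z- embryos. The gap between the groups of *Scd2* was wider than that of *Scd1*, and its log2 fold change was smaller, at 0.29 ± 0.07. In all, 2 of the 33 genes did not overlap, both higher in M-Z- embryos, where 0.574% of all tested genes did not overlap and 0.3% were higher in M-Z- embryos without overlap. Since the genes were chosen with this comparison in view, nothing is read from that count. In bulk embryos, a change in the number of cells of a type and a change in RNA per cell cannot be told apart.

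The edgeR quasi-likelihood test called none of the 33 genes changed at an adjusted p below 0.05 with a log2 fold change beyond 0.5, where it called 0.0811% of all tested genes (13 of 16026; 0.0437% as higher and 0.0374% as lower in M-Z- embryos). At an unadjusted p below 0.05, 9 of the 33 passed (8 higher and 1 lower in M-Z- embryos), against 6.7% of all tested genes (3.44% higher and 3.26% lower). DESeq2 called 1 gene of the set, *Scd1*, against 0.231% of all genes it tested. The adjusted p of *Scd1* was 0.00112 by DESeq2 and 0.118 by edgeR. *Scd2* had an adjusted p of 0.000394 by DESeq2 and 0.300 by edgeR. It was not called by DESeq2 because its log2 fold change there (0.297) was within the limit of 0.5.

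*Scd1* and *Scd2* lie in a cluster of desaturase genes on chromosome 19. In the table, on GRCm38, *Scd2* spans 44293676 to 44306864 and *Scd1* spans 44394451 to 44407709. *Scd4* lies between them (44333092 to 44346743) and had 2 to 15 counts per embryo. Of the 50-base stretches of *Scd1* transcripts, 3.03% also occurred in *Scd2*, and in the other direction the share was 2.68%. *Scd2* had 14586 to 22063 counts per embryo and *Scd1* had 675 to 1282, so a small share of *Scd2* reads would weigh on the *Scd1* count. How reads of such stretches were counted is not given in the sources used here, and their part in the values of *Scd1* was not tested. *Scd2* TPM were 14.6 to 19.3 times those of *Scd1* in M-Z+ embryos (median 16.5) and 13.5 to 16.0 times in M-Z- embryos (median 14.2), so the ratio overlapped between genotypes.

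**Figure D2:**
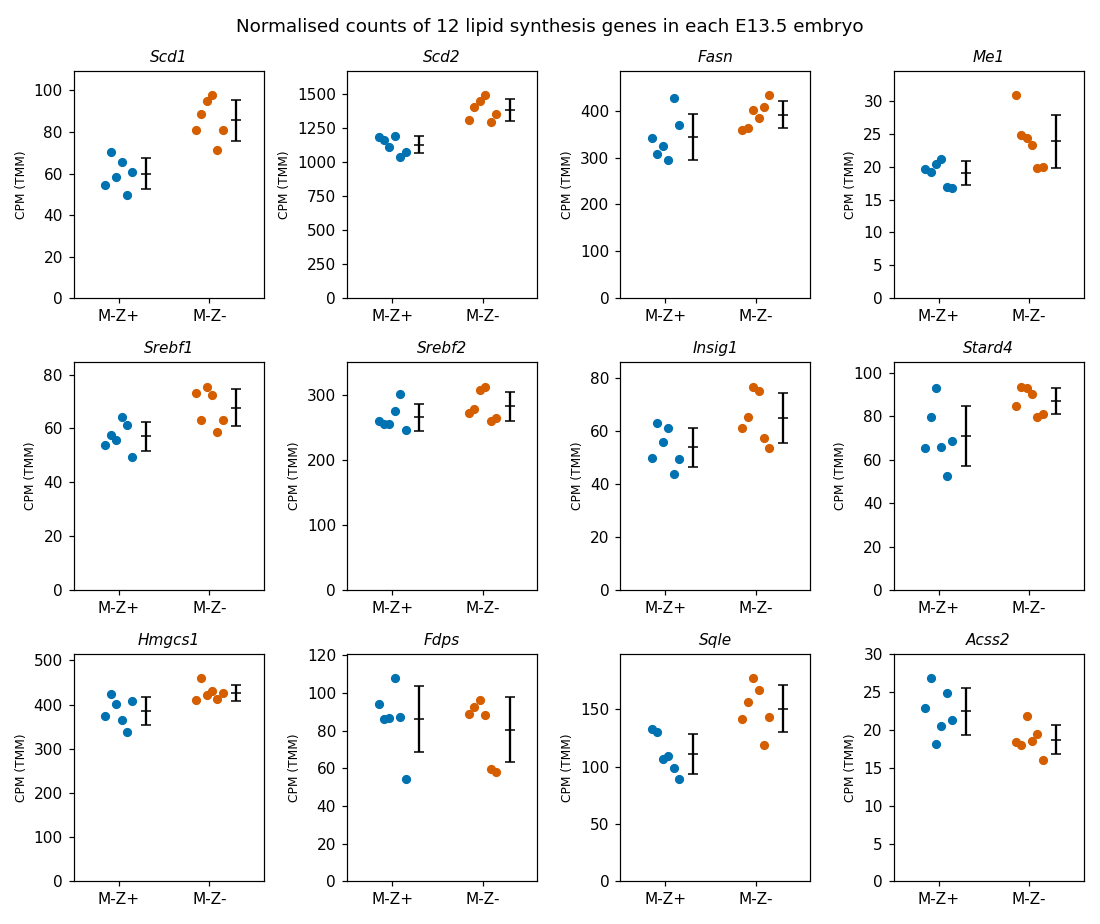
CPM (TMM-scaled) of 12 of the genes in each embryo, with the mean and SD of each genotype (n = 6) as bars beside the points and every axis starting at 0. The M-Z- embryos of Scd1 (71.4 to 97.7) and Scd2 (1291 to 1489) lie above all M-Z+ embryos, and the genotypes overlap for the other 10 genes shown.

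The 4 genes of sterol control and transport all had fitted log2 fold changes above 0, with a median of 0.26. Insig1 protein keeps SREBP inactive when sterol is plentiful. *Insig1* CPM ran from 43.8 to 62.9 (median 52.6) in M-Z+ embryos and from 53.4 to 76.6 (median 63.1) in M-Z- embryos, with a log2 fold change of 0.27 ± 0.11. *Srebf1*, the gene of SREBP1, ran from 49.4 to 64.2 CPM (median 56.8) and from 58.6 to 75.5 CPM (median 67.8), with a log2 fold change of 0.25 ± 0.09. Both genes overlapped between genotypes through their lower M-Z- embryos. *Srebf2*, the gene of SREBP2, ran from 246 to 302 CPM (median 258) in M-Z+ embryos and from 261 to 314 CPM (median 276) in M-Z- embryos. Its log2 fold change was 0.09 ± 0.07, the smallest of the 4 genes. *Stard4*, whose product carries cholesterol through the cytosol, ran from 52.7 to 93.2 CPM (median 67.2) and from 79.5 to 93.7 CPM (median 87.6), with a log2 fold change of 0.30 ± 0.11. All but 2 M-Z+ embryos were below the lowest M-Z- embryo.

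The 7 genes of the mevalonate pathway had a median log2 fold change of -0.05, with 2 of 7 above 0. *Hmgcs1* CPM ran from 339 to 424 (median 388) in M-Z+ embryos and from 411 to 460 (median 424) in M-Z- embryos. Its log2 fold change was 0.15 ± 0.07, the highest of the 7. *Fdps*, whose enzyme makes farnesyl diphosphate, ran from 54.1 to 108 CPM (median 87.1) and from 57.8 to 96.0 CPM (median 88.6). *Fdps* had a log2 fold change of -0.10, and its low embryos, M-Z+ replicate 6 and M-Z- replicates 5 and 6, were the 3 with the steepest gene length slope. The other 5 genes, *Acat2*, *Mvk*, *Pmvk*, *Mvd* and *Idi1*, had log2 fold changes from -0.10 to 0.05.

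From squalene to cholesterol, 7 of 11 genes were above 0 and the median log2 fold change was 0.03. *Sqle*, which encodes the enzyme that puts the first oxygen on squalene, stood out from the other 10. *Sqle* CPM ran from 89.3 to 132 (median 108) in M-Z+ embryos and from 119 to 177 (median 150) in M-Z- embryos, with a log2 fold change of 0.44 ± 0.12. The overlap came from M-Z- replicate 5 and M-Z+ replicates 1 and 2. The other 10 genes ran from -0.18 (*Tm7sf2*, a sterol reductase) to 0.17 (*Hsd17b7*, a sterol ketoreductase). *Cyp51*, the lanosterol demethylase, was at 0.08 ± 0.07, and *Dhcr7*, whose enzyme makes cholesterol in the last step, was at 0.01. Over all 18 sterol synthesis genes the median was -0.01, with 9 above 0, against a median of -0.0072 and 48.3% above 0 over all tested genes.

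Of the 11 fatty acid genes, 10 were above 0 and the median log2 fold change was 0.18. *Fasn*, the fatty acid synthase, ran from 294 to 427 CPM (median 334) in M-Z+ embryos and from 358 to 433 CPM (median 392) in M-Z- embryos, with a log2 fold change of 0.18 ± 0.09. The highest M-Z+ embryo, replicate 5, was above 5 of the 6 M-Z- embryos. *Me1*, the malic enzyme that supplies NADPH, ran from 16.8 to 21.2 CPM (median 19.4) and from 19.8 to 30.8 CPM (median 23.8), with a log2 fold change of 0.32 ± 0.11. *Acaca*, which makes malonyl-CoA, had a log2 fold change of 0.36 with a larger error of 0.18. *Acss2* was the 1 fatty acid gene below 0. It ran from 18.1 to 26.8 CPM (median 22.1) in M-Z+ embryos and from 16.0 to 21.9 CPM (median 18.5) in M-Z- embryos, with a log2 fold change of -0.26 ± 0.11. The elongases and the other desaturases lay between 0.08 (*Fads1*) and 0.20 (*Elovl6*). *Scd1*, *Scd2*, *Sqle*, *Me1*, *Stard4*, *Insig1*, *Srebf1*, *Hmgcs1* and *Acss2* kept the sign of their fold change in all 19 alternatives, those for other scalings included. These are the 9 genes of the set at an unadjusted p below 0.05 in the edgeR test. All alternatives reuse the same embryos, so the kept signs are no separate support.

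**Figure D3:**
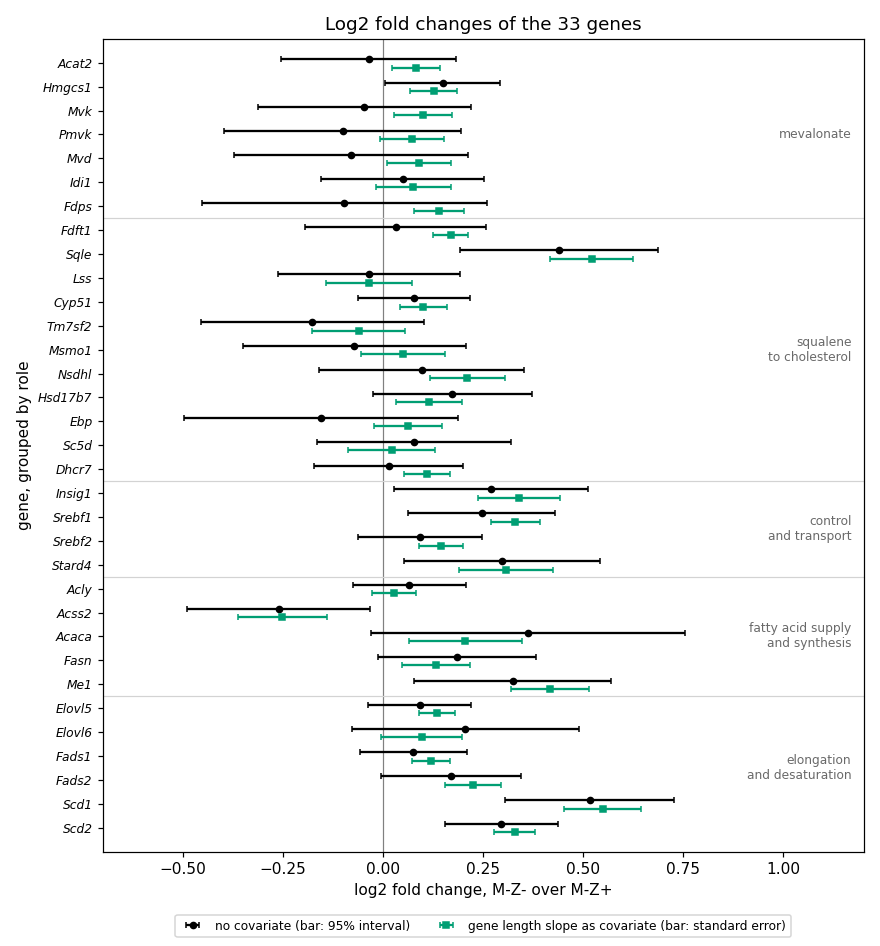
Log2 fold change of each gene (M-Z- over M-Z+, n = 6 each), without a covariate in black with its 95% interval and with the gene length slope of the library as a covariate in green with its standard error. Scd1 lies at 0.52 and Sqle at 0.44 without the covariate, and most sterol genes move to the right with it (16 of 18 above 0, against 9 of 18 without).

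The mean of the 18 sterol genes followed the gene length slope of the library, with a correlation of -0.92 within genotypes over the 12 embryos. The single sterol genes differed in this. The correlation was -0.97 for *Fdft1*, -0.96 for *Fdps* and -0.93 for *Ebp*, but -0.35 for *Cyp51*, -0.23 for *Idi1* and -0.08 for *Lss*. *Hsd17b7* (0.57), *Sc5d* (0.42) and *Hmgcs1* (0.35) were above 0. Among the fatty acid genes it was 0.72 for *Acaca* and 0.69 for *Elovl6*. The middle quartiles of all tested genes lay between -0.60 and 0.57, and *Scd1* was at -0.28. With the slope as a covariate, 30 of the 33 genes were above 0 in place of 23. The median of the sterol genes moved from -0.01 to 0.09 and that of the fatty acid genes from 0.18 to 0.13. The origin of the slope was not tested.

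*Scd1* was then compared with the pathway among embryos of the same genotype. Each embryo was expressed as its deviation in log2 CPM from the mean of its genotype, which leaves out the difference between genotypes. *Insig1* followed *Scd1* most closely of the 6 genes tested, with Pearson's r of 0.892 and Spearman's rho of 0.881 over 12 embryos (permutation within genotypes, two-sided p = 0.0006, adjusted p = 0.0036 over 6 relations; adjusted p = 0.00594 for rho). The correlation was present in both genotypes, with 0.922 in M-Z+ and 0.864 in M-Z- embryos, and it was 0.840 without the 2 embryos farthest from the median of *Insig1*. High in both genes were M-Z- replicates 3 and 4 as well as M-Z+ replicates 2 and 4, and M-Z+ replicate 5 was low in both. Of all tested genes, 0.0125% had a correlation with *Scd1* at least as high as that of *Insig1*. Embryos shared depth and length slope across genes, and r was 0.906 after the slope was also fitted. The permutations took the 6 embryos of a genotype as exchangeable. M-Z- replicates 5 and 6 were closer to each other than to M-Z- replicates 1 to 4, so the permutation p-values given here and below may be too small.

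*Scd2* had r of 0.750 and rho of 0.692 with *Scd1* (permutation adjusted p = 0.0318 for r and 0.0665 for rho). It was 0.553 in M-Z+ and 0.960 in M-Z- embryos, and 0.565 without the 2 farthest embryos. The adjusted p of r rose above 0.05 without M-Z+ replicate 3 or 5, or without any 1 of M-Z- replicates 2 to 6, so the call rested on single embryos (r from 0.669 to 0.913 with 1 embryo left out). *Sqle* and *Hmgcs1* had r of 0.602 and 0.593 and rho of 0.587 and 0.552 (permutation adjusted p = 0.0694 for r of both, 0.0937 and 0.0968 for rho), and without the 2 farthest embryos r was 0.683 and 0.639. *Sqle* had r of 0.287 in M-Z+ and 0.971 in M-Z- embryos, and *Hmgcs1* had 0.700 and 0.445. *Srebf1* had r of 0.395 and rho of 0.399 (permutation adjusted p = 0.226 for r and 0.225 for rho; 0.0567 in M-Z+ and 0.724 in M-Z- embryos, and 0.406 without the 2 farthest embryos). *Fasn* was the 1 gene of the 6 with an opposite sign, at r of -0.611 and rho of -0.580 (permutation adjusted p = 0.0694 for r and 0.0937 for rho). For *Fasn* r was -0.820 in M-Z+ and -0.261 in M-Z- embryos, and -0.397 without the 2 farthest embryos. Whether any of these relations differed between genotypes was not tested.

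**Figure D4:**
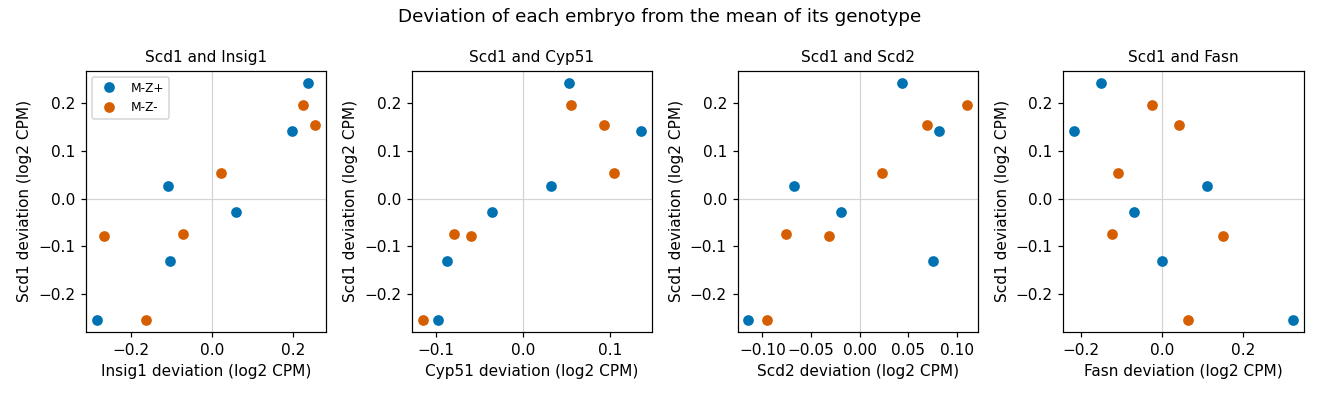
Deviation of Scd1 from the mean of its genotype in log2 CPM (vertical axis) against that of Insig1, Cyp51, Scd2 and Fasn (horizontal axes), with 1 point per embryo, 6 M-Z+ in blue and 6 M-Z- in orange. The points rise with Insig1 (r of 0.892), Cyp51 (0.868) and Scd2 (0.750) and fall with Fasn (-0.611).

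Over the other genes of the set, 27 of 32 had a correlation with *Scd1* above 0, with a median of 0.342, where the median over all tested genes was -0.0084 and their middle quartiles ran from -0.264 to 0.259. All 18 sterol synthesis genes were above 0 (median 0.371). After the gene length slope was also fitted their median was 0.336, and *Mvk* (-0.152), *Dhcr7* (-0.163) and *Nsdhl* (-0.057) were below 0. The fatty acid genes had a median of -0.02. The mean of the 18 sterol genes had r of 0.594 and rho of 0.678 with *Scd1* (jackknife SE of r 0.224), at 0.262 in M-Z+ and 0.896 in M-Z- embryos. It was 0.617 without M-Z+ replicate 6 and M-Z- replicate 5, the farthest from the median. These values are a description, because the genes share libraries and the slope.

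Ranked by their correlation with *Scd1* among 13472 genes with a mean of at least 50 counts, the 8 nearest were *Fam76a* (0.895), *Insig1* (0.892), *Fmo5* (0.884), *Gabrp* (0.881), *Cyp51* (0.868), *Sik1* (0.866), *Egln3* (0.856) and *Clec14a* (0.835). The list thus held 1 gene of sterol control and 1 sterol enzyme. *Cyp51* was named after its values were seen and has no p. It had 0.862 in M-Z+ and 0.878 in M-Z- embryos, and 0.857 after the slope was fitted. *Scd2* stood at rank 37, *Idi1* at rank 98, *Sqle* at rank 274, *Hmgcs1* at rank 299 and *Stard4* at rank 359.

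Among the 33 genes themselves, pairs of sterol genes had higher correlations within genotypes than pairs of fatty acid genes. The median correlation was 0.415 over 153 pairs of sterol genes and 0.077 over 55 pairs of fatty acid genes. After the gene length slope was fitted these medians were 0.120 and 0.050. *Fdps* with *Fdft1* went from 0.935 to -0.0026, so nothing of that correlation was left. *Insig1* with *Cyp51* went from 0.782 to 0.748. *Fasn* with *Acly*, whose enzyme makes the acetyl-CoA that *Fasn* uses, went from 0.833 to 0.784. These 3 pairs were chosen after their values were seen.

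**Figure D5:**
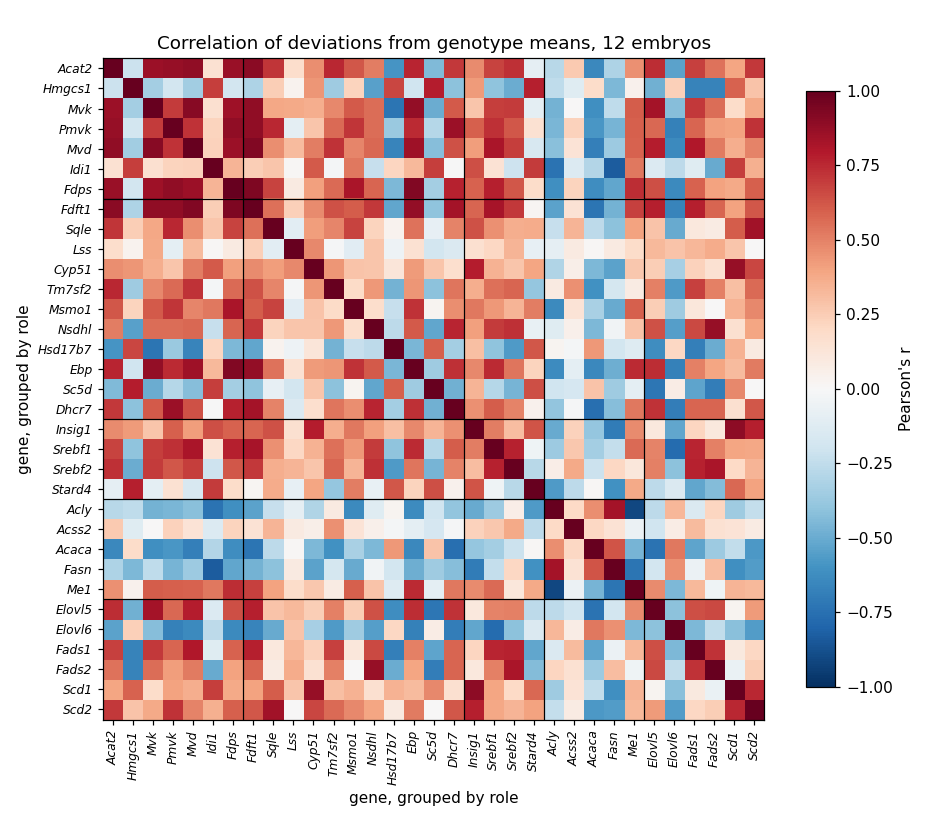
Pearson's r between the deviations of each pair of the 33 genes from their genotype means over 12 embryos, from -1 in blue to 1 in red, with black lines between the role groups. Acat2, Mvk, Pmvk, Mvd and Fdps form red blocks with each other and with Fdft1 and Ebp (Fdps with Fdft1 at 0.935), Hmgcs1 is blue against them (-0.18 with Fdps), and Acly, Acaca, Fasn and Elovl6 are mostly blue against them.

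The spread between embryos of 1 genotype lay, by its median, within the middle quartiles of all tested genes. The median SD within genotypes was 0.189 on the log2 scale, against 0.233 over all tested genes (middle quartiles 0.157 to 0.359). The genes compared were not matched for count level, which also affects the spread. *Elovl5* (0.075), *Scd2* (0.081) and *Fads1* (0.083) varied least. *Acaca* (0.373), *Fdps* (0.334) and *Ebp* (0.302) varied most, and these 3 followed the gene length slope. Summed over the 33 genes, the level was 2996 to 3286 TPM in M-Z+ and 3447 to 3691 TPM in M-Z- embryos, a sum in which *Scd2* was the largest term. The mean of *Scd2* was 722 TPM in M-Z+ and 907 TPM in M-Z- embryos. TPM were not TMM-scaled, unlike the CPM. The genes were chosen with this comparison in view, so nothing is read from the sum.

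Of 46 further genes of lipid metabolism, 42 passed the filter and edgeR called none of them, nor did DESeq2. At an unadjusted p below 0.05, 4 of the 42 passed (9.52%), all higher in M-Z- embryos, against 6.7% of all tested genes and 3.44% of them higher. Among them were *Soat1*, which esterifies cholesterol (log2 fold change 0.21 ± 0.09), and *Gpam*, which starts glycerolipid synthesis (0.26 ± 0.12). The median of the 42 genes was 0.05, with 25 above 0. *Idi2*, *Thrsp*, *Elovl3* and *Scd4* did not pass the filter.

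The sterol genes were also correlated with markers of several embryonic cell types. The 10 hepatocyte markers, all tested and none called, had a median log2 fold change of -0.21 with 8 below 0, and their summed level ran from 4092 to 7799 CPM in M-Z+ and from 3101 to 7398 CPM in M-Z- embryos. Within genotypes the mean log2 deviation of these markers had a correlation of 0.504 with *Scd1* and of 0.791 with the mean of the sterol genes. For the 5 erythroid markers these values were 0.372 and 0.767, for the 5 keratinocyte markers 0.432 and 0.790, and for the 5 neuron markers -0.412 and -0.803. For the 5 skeletal muscle markers they were -0.036 and 0.610, and for the 5 steroidogenic markers 0.381 and 0.233. Single markers of a list could go either way with the sterol mean, such as -0.85 for *Dcx* and 0.50 for *Stmn2* among the neuron markers, and many followed the gene length slope (0.96 for *Dcx*, -0.91 for *Hba-a1* and -0.88 for *Ttr*). None of these markers was called. At an unadjusted p below 0.05, 2 of the 5 neuron markers passed, *Tubb3* and *Stmn2*, with log2 fold changes of -0.24 and -0.21. Of all tested genes 6.7% passed, and 3.26% passed as lower in M-Z- embryos. *Dcx* was the 1 neuron marker above 0, at 0.10. *Stmn2* did not overlap between genotypes, with 246 to 278 CPM in M-Z+ and 205 to 242 CPM in M-Z- embryos. Of all tested genes 0.275% were lower in M-Z- embryos without overlap. All 5 erythroid markers had log2 fold changes below 0, with a median of -0.16. Summed CPM overlapped between genotypes for every list, with 2587 to 4383 and 2168 to 3949 for erythroid, 1361 to 1819 and 1360 to 1629 for neuron, 891 to 1105 and 958 to 1101 for skeletal muscle, 164 to 386 and 183 to 343 for keratinocyte, and 9.57 to 17.5 and 9.60 to 18.1 for steroidogenic markers. Of the 6 adipocyte markers 2 passed the filter, with a sum of 3.70 to 10.4 CPM in M-Z+ and 5.07 to 8.99 CPM in M-Z- embryos. *Adipoq*, *Cidea*, *Cidec* and *Plin1* had at most 24 counts in any embryo. The part of these tissues in the results was not tested.

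Several genes of the set overlap others in the table, and reads could have been divided between them, since the treatment of strand is not given in the sources used here. *Cyp51* overlaps *Akap9*, *Srebf1* overlaps *Rai1*, *Fdft1* overlaps *Ctsb* and *Acss2* overlaps *Ggt7* and *Gss*. *Scd1*, *Scd2*, *Insig1*, *Hmgcs1* and *Sqle* overlap no other gene there.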

How the data were processed

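RNA-seq counts of 12 E13.5 embryos were used, 6 per genotype as given in the sample labels. The authors deposited raw read counts per gene and FPKM values made from the same counts. The deposited FPKM gave the length of each gene, and TPM was derived with these lengths. The submitters' processing notes name HISAT2 2.0.4, Trim Galore 0.4.1, Bismark 0.15.0, Bowtie2 2.2.9 and mm10 without their roles. Counting program, annotation and treatment of strand: not given in the sources used here. Table positions of all 33 genes overlapped the RefSeq genes of GRCm38.p6. Bisulfite libraries of 12 embryos were not analysed here.

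The counts were tested with edgeR 4.0.16 in R 4.3.3 (TMM, filterByExpr, glmQLFit, glmQLFTest, no covariate, Benjamini-Hochberg adjustment over all 16026 genes; adjusted p below 0.05 and log2 fold change beyond 0.5). Standard errors and intervals came from the same fit. DESeq2 1.42.0 was run on the same genes as an alternative. The other alternatives were upper-quartile scaling, other filters, the replicate number as a block, a covariate for gene length slope, and each embryo left out. Leaving out the 4 embryos of extreme slope was added after seeing the data. Both fits and the correlation ranking were tested on simulated data. Log2 changes of 1 and 2 were each given to 100 genes. Of these, edgeR recovered 83 and 99, with 7 false calls. DESeq2 recovered 90 and 99, with 25 false calls. Smaller changes were not simulated, so recovery at the size seen for *Scd1* (log2 fold change 0.52) was not tested. The outcome for the correlation ranking is not reported here. Correlations within genotypes used log2 CPM with a prior count of 2 and 100000 permutations of embryos within genotypes. Python 3.11.15 with matplotlib 3.10.9 drew the figures.

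The genes, role groups, 46 further lipid genes, marker lists and the 6 relations were chosen with earlier results of these data known. Genes named with values in each genotype were the 9 set by name and those at an unadjusted p below 0.05. Total counts were 12005145 to 19216288 per embryo. Replicates differed by more than sampling noise in all 30 pairs. By chi-square of the counts per gene, M-Z- replicates 5 and 6 differed least (7.12). They differed more from M-Z- replicate 1 (26.7 and 28.3), which was close to M-Z- replicate 2 (7.48). The origin of this grouping was not tested. Shared 50-base stretches were counted in the transcripts of the NCBIM37 annotation, whose coordinates were not used. Values of some of the further lipid genes are not reported here.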

Additional observations from a re-analysis of the deposited data

Results flagged for a closer look

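No embryo stood apart from the other 5 of its genotype in any of the 33 genes by the gap between the extreme embryo and its neighbour (0 of 66 groups of 6 values, where chance flags about 1 in 20). This rule cannot flag 2 embryos that lie apart together, so it does not show that the groups are uniform. M-Z- replicates 5 and 6 had 59.6 and 57.8 CPM of *Fdps*, against 88.2 to 96.0 in M-Z- replicates 1 to 4. For *Fdft1* they had 85.3 and 83.9 CPM, against 105 to 115.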

How the results depend on the processing

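The count of called genes over the whole table was 13. It was 37 by DESeq2, 21 with the replicate block, 23 with the gene length slope and 20 without the 4 embryos of extreme slope. With 1 embryo left out it was 11 to 15. At an unadjusted edgeR p below 0.05 it was 247 with the log2 fold change limit of 0.5 kept, and 1074 genes passed that p without the limit. Of the 33 genes 0 were called, and 1 (*Scd1*) by DESeq2, with the block, with the slope and at the unadjusted p with the fold limit kept, but 0 with any 1 embryo left out. The replicate numbers are not given as pairs, same-number correlations ran from 0.02 to 0.64, and 5 of 12 embryos correlated best with their own number. With the replicate block, r of *Scd1* with the sterol mean was 0.0071, with *Scd2* 0.169 (adjusted p = 0.798, permutation) and with *Fasn* 0.112, a reversed sign. With the slope as a covariate r was 0.916 with the sterol mean and 0.769 with *Hmgcs1*, which passed the threshold. Upper-quartile scaling gave *Hmgcs1* 0.701, also past it. Without the 4 embryos of extreme slope, *Scd2* had 0.691 and no longer passed, and *Srebf1* had -0.036, a reversed sign. With 1 embryo left out r ranged from 0.447 to 0.731 for the sterol mean, 0.859 to 0.933 for *Insig1*, 0.669 to 0.913 for *Scd2*, 0.455 to 0.820 for *Sqle*, 0.401 to 0.728 for *Hmgcs1*, 0.194 to 0.640 for *Srebf1* and -0.684 to -0.416 for *Fasn*. *Scd2* lost its call without M-Z+ replicate 3 or 5 or any of M-Z- replicates 2 to 6, *Sqle* gained one without M-Z+ replicate 1 or 6, *Hmgcs1* without M-Z+ replicate 4 and *Fasn* without M-Z- replicate 1. The causes were not tested. At 6 embryos per genotype, changes of the size seen here for most of the genes cannot be told from the spread between embryos.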
